A study of Mus musculus with 2 samples.

Results

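Plasmacytoid dendritic cells (pDCs) were selected from single-cell RNA sequencing of the lungs of mice that carried 4T1 tumors, a transplantable mammary carcinoma of BALB/c mice that spreads to the lungs. The selection found 54 pDCs among 16995 cells that passed the limits on detected genes and mitochondrial reads, with 18 of 8662 in the saline library and 36 of 8333 in the NP library. All mice were female BALB/cJ mice, labelled as 12 weeks of age, and both groups received 100000 4T1 cells, so that neither library came from a tumor-free or untreated lung. One group was given intravenous saline and the other intravenous nanoparticles (NP) of the polymer PLG, poly(lactide-co-glycolide), without a drug cargo, in both cases from day 1 after inoculation and every 3 days, for 5 doses. Lungs were taken at day 14, pooled over 4 mice per group according to the labels (the study's methods give another number), and made into 1 library per group. The mouse that each cell came from is not known here, there is no replicate check on any difference, and no test was run. Intervals are 95% intervals that cover counting error only.

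pDCs are bone marrow-derived immune cells that sense viral and self nucleic acids in endosomes and can secrete large amounts of type I interferon. They depend on the transcription factor TCF4 (E2-2), are held apart from conventional dendritic cells by low ID2, and carry inhibitory surface receptors, such as Siglec-H in mice, that signal through DAP12. In tumors they are known both as a source of interferon and as cells with a poor capacity to make it.

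A cell was called a pDC when it had 500 to 5000 detected genes, under 7.5% of its unique molecular identifiers (UMIs, counts of captured RNA molecules) on mitochondrial genes, under 5% on the neutrophil genes S100a8 and S100a9, at least 3 UMIs of Siglech, at least 1 of Ccr9, Cox6a2 or Klk1, under 4 of the B cell gene Cd79a and 0 of the T cell gene Cd3e. These measured values chose the cells, so that the levels of these genes describe the selection and are not findings. The limit fell in a sparse region. With 1 Siglech UMI there were 9 saline and 5 NP cells, with 2 UMIs 1 and 2 cells, and with 3 to 5 UMIs 0 and 2 cells. The 9 saline cells with 1 Siglech UMI held 906 UMIs of the myeloid lysozyme gene Lyz2 with 0 of Cox6a2 and Klk1 and 2 of Ccr9, and 1 of the 9 met the condition on the second marker. No cell with 3 or more Siglech UMIs was lost to the conditions on the second marker, Cd79a, Cd3e or S100a8 and S100a9. The mitochondrial limit removed 1 saline and 1 NP cell that met the rest of the rule, and the limit of 500 detected genes removed 1 saline cell. In all, 21 barcodes were cells in both libraries, and 0 of them were pDCs. A doublet caller scored 1.65% of the saline and 3.01% of the NP cells above its limit, and 0 pDCs.

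The 18 saline pDCs held 200727 UMIs in total, with a median of 10557.5 per cell (5332 to 17950) and 3201 detected genes. The 36 NP pDCs held 446339 UMIs, with a median of 11729 per cell (3396 to 22191) and 3388.5 detected genes. The pools were therefore small. The least count used in a ratio, 3 UMIs, stood for 14.9 UMIs in every 1000000 of the saline pool and 6.72 in every 1000000 of the NP pool.

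Siglech (chr7:55768178-55778925, GRCm38, plus strand), which encodes the receptor Siglec-H, gave 546 UMIs in saline and 1183 in NP pDCs, or 2720.1 and 2650.5 counts per 1000000 UMIs of the pool (CPM). Per cell it ranged from 16 to 45 UMIs in saline (median 30) and from 3 to 65 in NP (median 33). Ccr9 (chr9:123678439-123784330), the receptor for the gut and thymus chemokine CCL25, had 202 and 459 UMIs, 1006.3 and 1028.4 CPM. Cox6a2 (chr7:128205435-128206387), a subunit of cytochrome c oxidase otherwise known from muscle, had 314 and 462 UMIs, 1564.3 and 1035.1 CPM. It was detected in 18 of 18 saline and 28 of 36 NP cells. Klk1 (chr7:44225360-44229618), a kallikrein serine protease, had 356 and 639 UMIs, 1773.6 and 1431.6 CPM. Klk1 and Klk1b27 belong to a family of near-identical genes, so that the split of reads between them is uncertain. Together these values describe a selection with like Siglech levels in both libraries and 8 NP cells without Cox6a2.

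The label held up beyond the genes of the rule, except for Ly6d. This gene of the fixed pDC marker list had 17 UMIs in 6 of 18 saline cells and 63 in 6 of 36 NP cells. Its median was 0 in both libraries, and the highest NP cells held 28 and 23 of its UMIs. Ranked by the pooled level in pDCs over all other cells with low S100a8 and S100a9, in the lower of both libraries, the 20 leading genes were Klk1, Gm21762, Siglech, Klk1b27, Dntt, Sh3bgr, Havcr1, Paqr5, Pdzd4, Eldr, Ccr9, Cox6a2, Atp2a1, Upb1, Chdh, Smim5, Cd209d, Lag3, Lefty1 and Pacsin1. This ranking is a description, since the same cells were chosen by their expression. Dntt, the terminal transferase of lymphoid progenitors, had 23 saline and 52 NP UMIs in pDCs against 0 and 3 UMIs in all the other cells of that comparison. Havcr1 (TIM-1), a phosphatidylserine receptor, had 20 and 45 UMIs against 6 and 7. Lag3, an inhibitory receptor that binds MHC class II, reached 104.6 and 136.7 CPM in pDCs and 0 and 5.15 CPM in conventional dendritic cells. Pacsin1, an adaptor of endocytosis, reached 373.6 and 315.9 CPM, against 21.9 CPM in NP B cells and 0 in conventional dendritic cells of both libraries. The map of pooled levels by cell class shows these genes in rows.

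**Figure D1:**
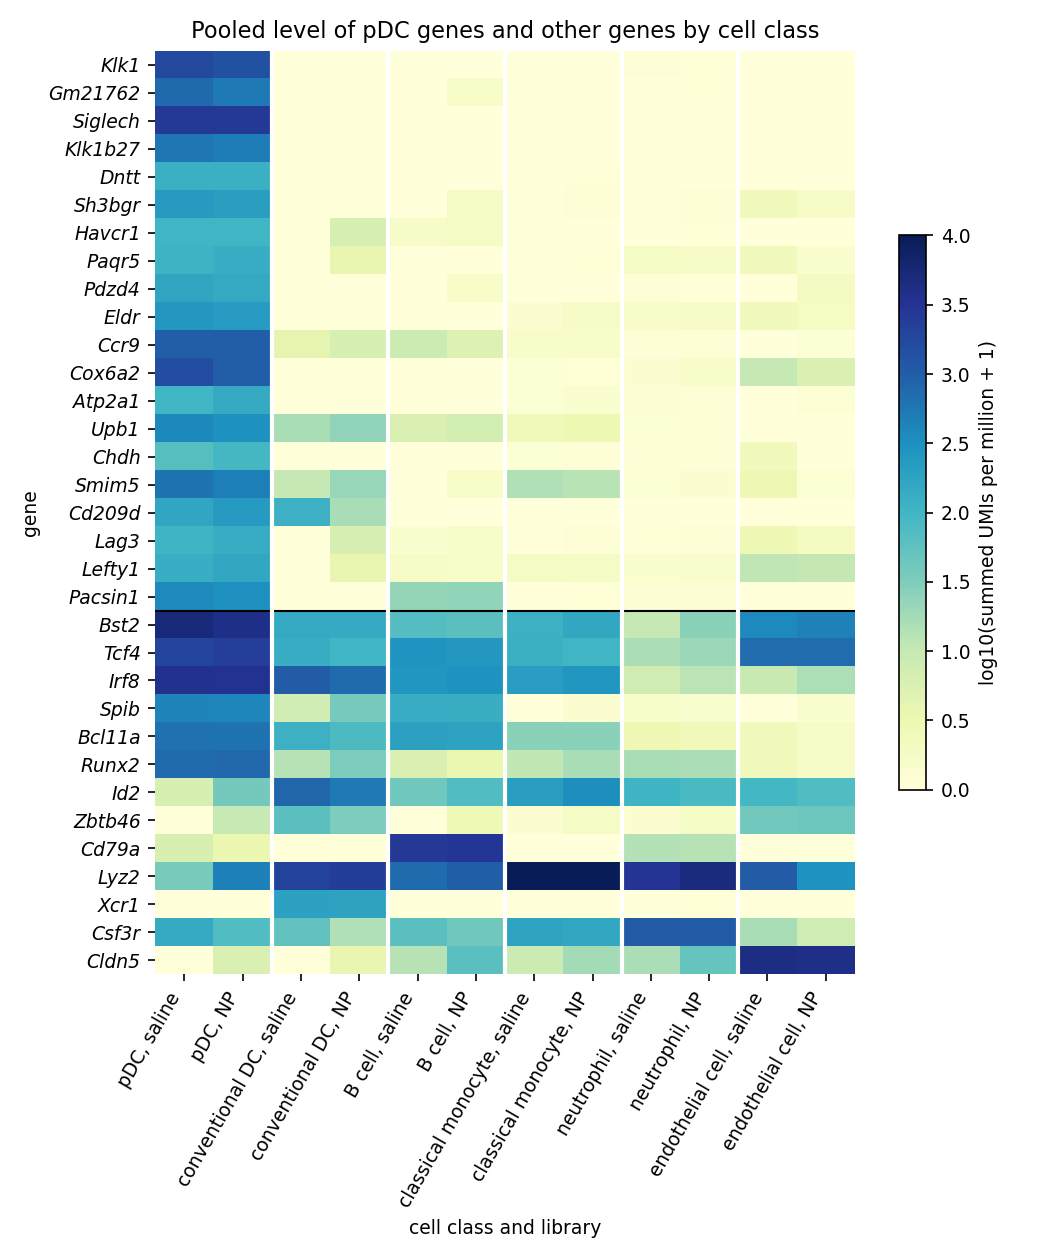
Pooled level of each gene (rows) in 6 cell classes of the saline and NP libraries (columns), as log10 of CPM plus 1; each row is read from left to right, since levels are not compared between genes. The 20 genes above the line lead the pDC ranking, and those below it are other pDC genes and genes of other cell types. Klk1 was at 1773.6 and 1431.6 CPM in pDCs and at 0 in conventional dendritic cells of both libraries.

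The transcription factors of the lineage were present in both libraries. Tcf4, the master regulator of pDC fate, reached 1868.2 CPM in saline and 2325.6 in NP pDCs, against 131.7 and 100.4 in conventional dendritic cells. Runx2, which helps pDCs leave the bone marrow, reached 747.3 and 790.9 CPM against 12.2 and 30.9. Irf8 was at 3502.3 and 3315.9 CPM, against 1041.0 and 748.8 in conventional dendritic cells, which also use it. Spib, an ETS factor of pDCs and B cells, was at 418.5 and 392.1 CPM, and Bcl11a at 632.7 and 618.4. Id2, the inhibitor of TCF4, had 1 UMI in 1 saline cell and 17 UMIs in 3 NP cells, while conventional dendritic cells held it at 811.4 and 524.9 CPM. Of the 17 Id2 UMIs, 9 and 6 lay in NP cells with 32 and 31 Siglech UMIs. The same cells held 168 and 10 UMIs of Lyz2, and 5 and 2 of Cx3cr1, a marker on the transitional dendritic cell list described further on. Zbtb46, a factor of conventional dendritic cells, had 0 UMIs in saline and 4 in NP pDCs. These values fit the name in both libraries, with a low-Siglech group of NP cells described further on.

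Some genes often read as marks of other cell types were part of the pDC profile. Il7r, the interleukin-7 receptor of lymphocytes, was detected in 18 of 18 saline and 31 of 36 NP pDCs, at 403.5 and 371.9 CPM, against 12.2 and 0 CPM in conventional dendritic cells. The natural killer receptor gene Klrd1 (CD94) was at 284.0 and 190.4 CPM. Cdh5, the cadherin of endothelial junctions, was at 124.5 and 132.2 CPM in pDCs and at 1721.5 and 1719.4 in endothelial cells. Its neighbours on the endothelial list gave 18 saline and 49 NP UMIs in total over the other 11 genes. Mzb1, a chaperone of plasma cells, was at 398.6 and 306.9 CPM, while the plasma cell genes Jchain and Sdc1 had 2 and 1 UMIs in saline and 0 and 10 in NP. Ighm, the immunoglobulin mu chain, was detected in every pDC, at 1086.1 and 891.7 CPM. The level of the B cell receptor gene Cd79a describes the selection, since the rule held it under 4 UMIs per cell.

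The share of pDCs depended on what it was set against. Of all cells, pDCs made up 0.208% in saline (exact Clopper-Pearson interval 0.123 to 0.328) and 0.432% in NP (0.303 to 0.598), a fold of 2.08 (1.18 to 3.66). Among cells with under 5% of S100a8 and S100a9 UMIs, which leaves out most neutrophils, the shares were 0.578% of 3113 cells (0.343 to 0.912) and 0.694% of 5190 cells (0.486 to 0.959), a fold of 1.20 (0.682 to 2.11). Neutrophils, which carry these genes, numbered 5548 of 8662 cells in saline and 3140 of 8333 in NP, and their part in the first fold was not tested. Of pDCs and conventional dendritic cells together, pDCs made up 45% of 40 cells (29.3 to 61.5) in saline and 59.0% of 61 cells (45.7 to 71.4) in NP, a fold of 1.31 (0.878 to 1.96). The last 2 folds cannot be told from 1 by counting error alone, and the spread between mice is unknown.

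Expression in the 2 pools was compared as the log2 ratio of CPM, NP over saline, with any count under 3 set to 3. Of 4592 genes with at least 20 UMIs, 309 (6.73%) were at least 2-fold higher and 161 (3.51%) at least 2-fold lower in NP, and the median log2 ratio was 0.03. These shares are the background for every list below. The ratio past 2-fold is a limit of size, not a test. The 20 UMIs were counted over both pools, so that a gene could pass through the deeper NP pool alone.

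Among genes with at least 40 UMIs and no cell holding more than 1 in 3 of the UMIs of both libraries together, the 12 highest ratios belonged to Klf4, Scd2, H2-Q7, Nedd9, Tent5a, Kcnq1ot1, Ccl4, Gpr65, Ms4a6c, Brd7, Lgals3 and P2ry10. The 12 lowest belonged to Ifi209, Cd69, Ifi44, Igkc, Ltb, Slc7a5, Ifitm1, Irf7, Ifi44l, Ifi203, Atp6v1d and Mpp1. Within the saline library alone, 1 cell held 24 of the 47 Atp6v1d UMIs. For Ifitm1, 1 saline cell held 75 of 127 UMIs and 1 NP cell 66 of 104. The condition on single cells left out genes with more extreme ratios, namely Saa3, Ly6a, Cstdc5, Isg15, Iigp1, Cstdc4, Usp18, Ifit2, Wfdc17 and Slfn5, all below Ifi209, and Lyz2, above Klf4. With a mitochondrial limit of 5% the ratio was 0.52 for Ifi209, 1.38 for Ifi44, 0.97 for Ifi44l and 1.45 for Ifi203, so that these 4 turned direction, and it was -0.36 for Cd69. With at least 15 Siglech UMIs the ratio of Klf4 was 1.61. The plot of these ratios gives their counts and intervals.

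**Figure D2:**
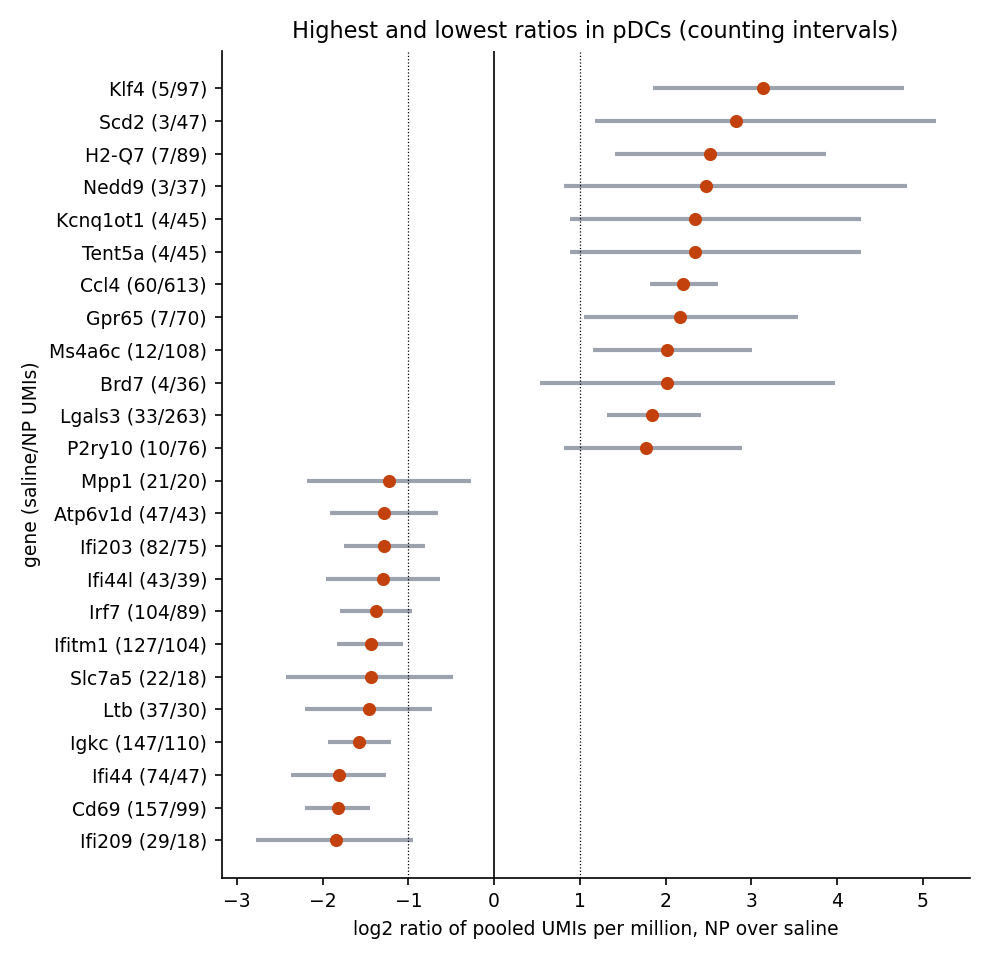
log2 ratio of pooled CPM, NP over saline, of the 12 highest and 12 lowest genes in pDCs among those with at least 40 UMIs and no cell holding more than 1 in 3 of them; points are the ratios, bars their 95% counting intervals, dotted lines mark 2-fold, and the saline and NP UMIs stand beside each name. Klf4 lies highest at 3.13 (1.61 with at least 15 Siglech UMIs) and Ifi209 lowest at -1.84 (0.52 with a mitochondrial limit of 5%), and the interval of Ccl4 (1.82 to 2.61) is among the narrowest.

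Ccl4, which encodes the chemokine MIP-1 beta, a leukocyte attractant, rested on the most UMIs of the high genes. It had 60 UMIs in the saline and 613 in the NP pool, 298.9 and 1373.4 CPM, a log2 ratio of 2.20 (1.82 to 2.61). In saline 6 of 18 cells had a Ccl4 UMI (median 0, highest 30), and in NP 26 of 36 did (median 7, highest 154). The groups overlapped, with 10 NP cells at 0. One NP cell held 154 of the 613 UMIs and one saline cell 30 of the 60, and without the top cell of each library the ratio was 2.76. At 2000 UMIs per cell, the share of pDCs with a Ccl4 UMI was 27.8% (9.69 to 53.5) in saline and 47.2% (30.4 to 64.5) in NP, against 0.626% and 1.28% in B cells and 1.85% and 0.711% in endothelial cells. Unthinned, the pDC shares were 33.3% and 72.2%. Ccl4 was also higher in NP conventional dendritic cells, at 24.5 and 193.0 CPM, and in classical monocytes, at 58.4 and 146.4 CPM. Of the 21 chemokine and cytokine genes 5 were measured, 2 at least 2-fold higher (Ccl4 and Cxcl2) and 0 lower, with a median of 0.26. Ccl3, which encodes MIP-1 alpha and was under the limit of 20 UMIs, had 3 and 16, Cxcl2 17 and 79 (72 of them in 1 NP cell), and Il12a, a subunit of interleukin-12, 9 and 24. Il1b had 202 and 237 UMIs, a log2 ratio of -0.92 (-1.20 to -0.64), in 7 saline and 17 NP cells, and 1 cell of each library held 122 and 133 of these UMIs. That saline cell also held 757 UMIs of the neutrophil list. In the barcodes with under 50 UMIs, a measure of free RNA, Il1b stood at 4748.1 CPM in saline and 3714.6 in NP. The part of free RNA in the Il1b values was not tested. Cxcl10 had 18 UMIs in 1 saline cell and 1 in NP. Tnf had 2 UMIs in each library, and Gzmb had 0 and 1.

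Lgals3 (galectin-3) and Ms4a6c, genes of high level in monocytes, were higher in the NP pool. Lgals3 gave 33 UMIs in saline and 263 in NP, 164.4 and 589.2 CPM, a log2 ratio of 1.84 (1.32 to 2.41). It was seen in 10 of 18 and 34 of 36 cells. Of the NP UMIs, 140 lay in 6 cells with under 15 Siglech UMIs, and with at least 15 required the Lgals3 ratio was 1.02. Thinned to 2000 UMIs, the share of cells with it was 11.1% (1.38 to 34.7) in saline and 50% (32.9 to 67.1) in NP, while B cells lay at 14.8% and 14.4%, so that the saline share was not above the B cell level. Lgals3 stood at 630.8 CPM in saline and 689.6 in NP conventional dendritic cells, and at 2370.4 and 2179.7 in monocytes. Ms4a6c gave 12 and 108 UMIs, in 5 of 18 and 25 of 36 cells, a log2 ratio of 2.02 (1.15 to 3.01), and those 6 cells held 57 of them. With at least 15 Siglech UMIs required the Ms4a6c ratio was 1.21. In the barcodes with under 50 UMIs, a measure of free RNA, Lgals3 stood at 1049.0 CPM in saline and 1081.4 in NP, and Ms4a6c at 176.7 and 304.7.

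H2-Q7, a nonclassical MHC class I gene, gave 7 UMIs in 4 of 18 saline cells and 89 in 27 of 36 NP cells, 34.9 and 199.4 CPM, a log2 ratio of 2.52 (1.41 to 3.87). No cell held more than 8 UMIs. H2-Q6 followed with 6 and 32 UMIs and H2-Q4 with 16 and 67, but reads of these near-identical copies can be split between them. H2-Q7 was higher in NP in the other classes as well, from 222.9 to 663.1 CPM in endothelial cells, 100.2 to 194.6 in B cells and 39.8 to 128.7 in conventional dendritic cells, and free RNA held 35.2 CPM in saline and 147.9 in NP. The part of free RNA in the pDC value was not tested. Scd2, a fatty acid desaturase, had 3 UMIs in 1 saline cell and 47 in 22 NP cells, a log2 ratio of 2.82 (1.18 to 5.15). Gpr65, a proton-sensing receptor, had 7 and 70 UMIs (2.17, 1.05 to 3.54). P2ry10, a lysophospholipid receptor, had 10 and 76 UMIs in 7 and 27 cells (1.77, 0.82 to 2.89). Kcnq1ot1 is an antisense RNA of Kcnq1, and whether reads of both genes were told apart by strand is not given in the sources used here.

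**Figure D3:**
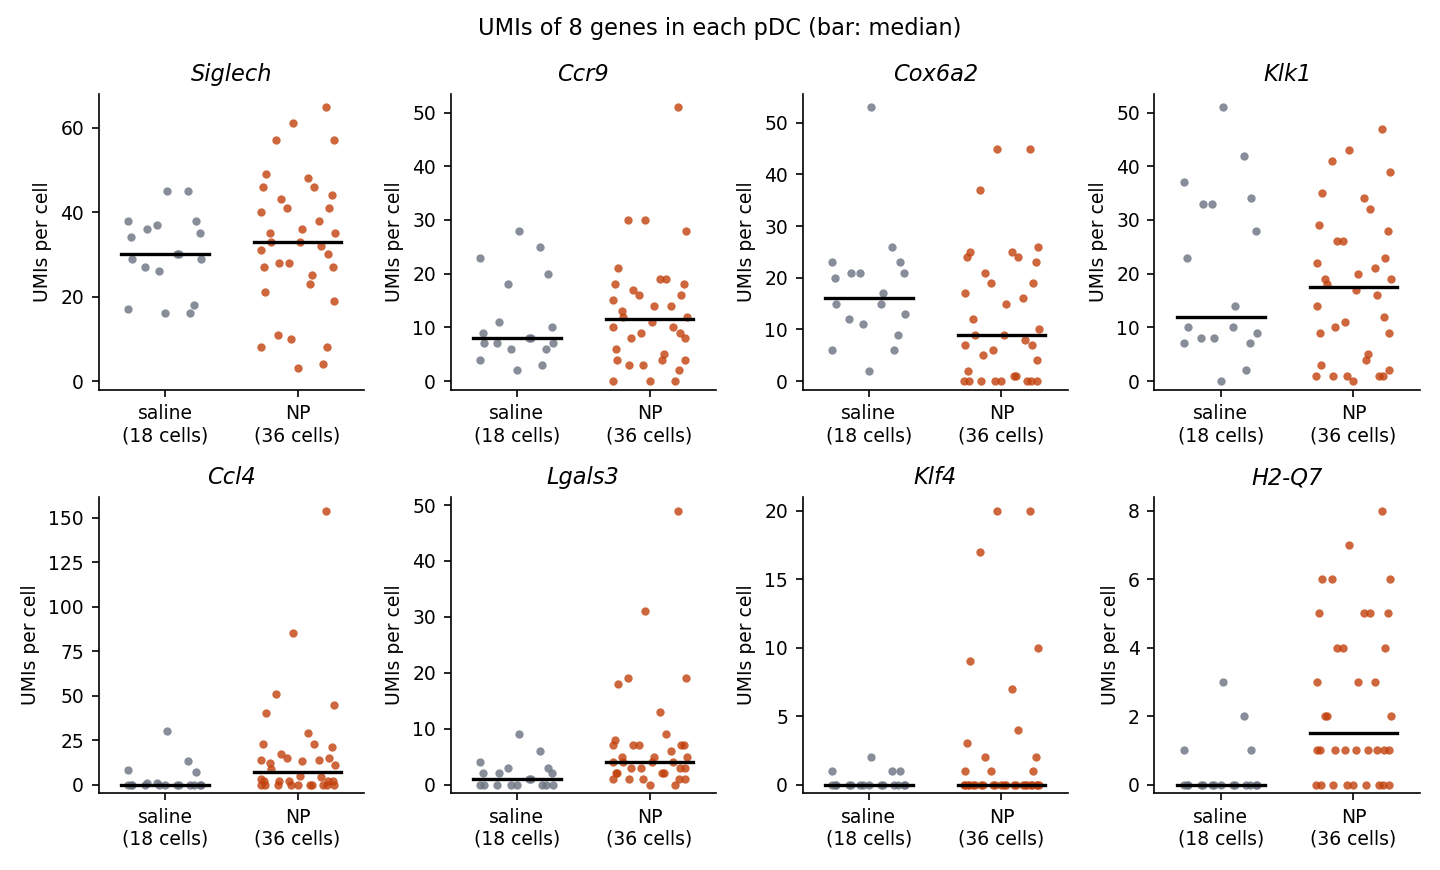
UMIs per cell (vertical axes, linear, from 0) of the 4 genes of the rule (top) and of Ccl4, Lgals3, Klf4 and H2-Q7 (bottom) in the 18 saline and 36 NP pDCs; each point is a cell and the bar is the median. The median of Ccl4 is 0 in saline and 7 in NP, the highest NP cell reaches 154, and 6 NP cells lie below 15 Siglech UMIs, where no saline cell does.

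The type I interferon response was lower in the NP pool, but most of the difference lay in 3 saline cells. Of the 58 genes on this list, 31 were measured, and 15 were at least 2-fold lower and 0 at least 2-fold higher, beside a background of 3.51% and 6.73%. The median log2 ratio was -0.83. The list without Bst2, its most abundant gene, summed to 1640 UMIs in saline and 1758 in NP, 8170.3 and 3938.7 CPM, a log2 ratio of -1.05 (-1.15 to -0.95). Isg15, a ubiquitin-like protein, gave 92 UMIs in 7 saline cells and 21 in 9 NP cells, a log2 ratio of -3.28 (-4.04 to -2.59). Usp18, which removes ISG15 and dampens receptor signalling, had 36 and 13 UMIs (-2.62, -3.66 to -1.67), and Ifi44 had 74 and 47 (-1.81, -2.37 to -1.26). Ly6a (Sca-1), a surface protein that interferon raises on many leukocytes, had 133 UMIs in 6 saline cells and 11 in 5 NP cells (-4.75, -5.79 to -3.86). Irf7, the factor that drives interferon genes in pDCs, had 104 and 89 UMIs in 14 and 28 cells (-1.38, -1.80 to -0.96). Members with ratios near 0 or above it included Irf9, part of the complex that reads interferon signals, with 22 and 49 UMIs (0.00, -0.75 to 0.80), and the ubiquitin ligase gene Trim25, with 19 and 75 (0.83, 0.09 to 1.64).

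Cell by cell, the list without Bst2 took 13.4 to 343.8 of every 10000 UMIs in saline (median 38.8) and 9.68 to 135.4 in NP (median 34.4). The 3 highest saline cells stood at 343.8, 267.1 and 248.4, and the next at 59.5. These 3 cells, picked out after their values were seen, held 1127 of the 1640 list UMIs, or 68.7%. They held 84.8% of the saline Isg15 UMIs, 93.2% of Ly6a and 61.5% of Irf7. Pooled, the list reached 29240.1 CPM in these 3 cells, 3163.1 in the other 15 saline cells and 3377.6 in NP pDCs without their own 3 highest cells. Without the 3 highest cells of each library the log2 ratio of the summed list was 0.09 and the median 0.08. The highest of them also held 74 of the 157 saline Cd69 UMIs and the highest level of the interferon-gamma response list, 110.0 per 10000 UMIs. All 3 had over 5% mitochondrial UMIs, and with that limit at 5%, which left 6 saline and 13 NP pDCs, the ratio of the summed list was 0.67 and the median 0.97.

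**Figure D4:**
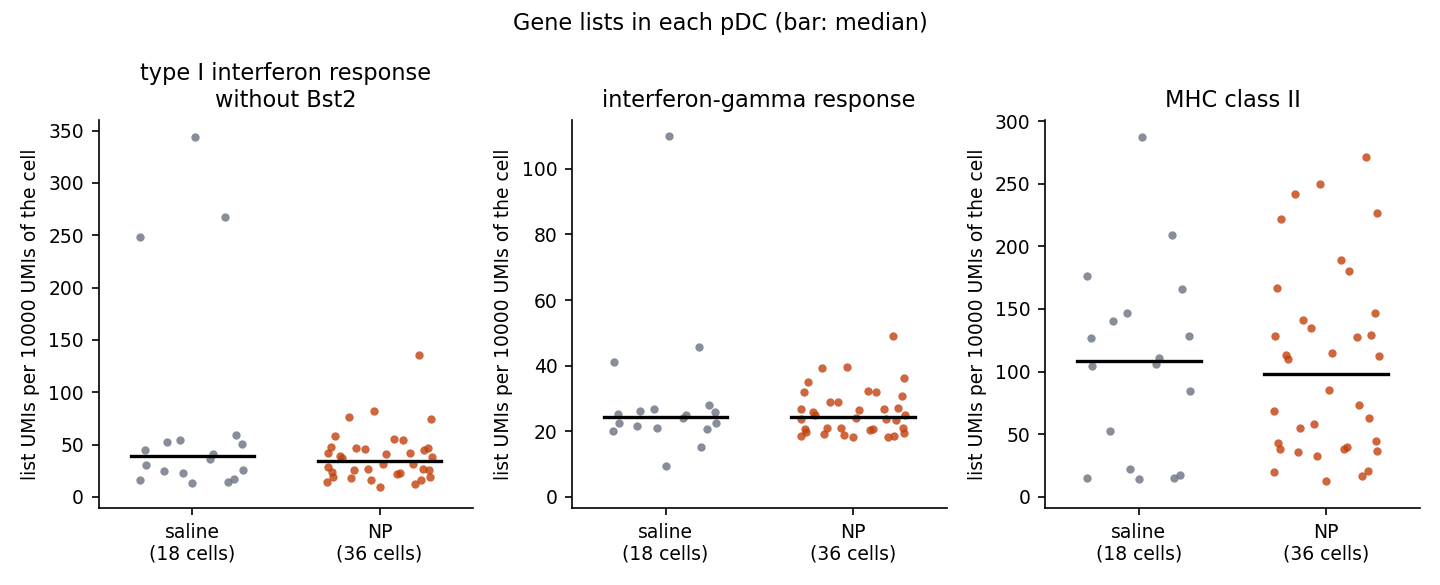
UMIs of the type I interferon response list without Bst2, of the interferon-gamma response list and of the MHC class II list, per 10000 UMIs of each cell (vertical axes), in the 18 saline and 36 NP pDCs; each point is a cell and the bar is the median. In the first panel 3 saline cells lie at 248.4 to 343.8, above every NP cell (highest 135.4), while the medians are 38.8 and 34.4.

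Interferon-stimulated genes carry a DNA element bound by the factor complex that interferon receptors activate. The letters GAAANNGAAA, searched on both strands as this and TTTCNNTTTC with overlapping matches counted, were found in RefSeq promoter windows (GRCm38.p6, 250 bases before to 50 after a start) of 23 of 43 matched list genes, or 53.5%. The share over all 27025 genes with a window was 3.99%, and it was 4.04% over the genes measured in pDCs. Among the 15 list genes past 2-fold lower, 11 had a window and 3 of them held the letters. Irf7 and Ifi44 had none in these windows. Of the genes that hold the letters, Isg15 and Slfn5 are shown because 84.8% and 98.5% of their saline UMIs lay in the 3 high cells, and Bst2 because every pDC expressed it. Capitals mark the matches. The windows are chr4:156200769-156201068 on the minus strand for Isg15, chr11:82951852-82952151 on the plus strand for Slfn5 and chr8:71537423-71537722 on the minus strand for Bst2.
Isg15: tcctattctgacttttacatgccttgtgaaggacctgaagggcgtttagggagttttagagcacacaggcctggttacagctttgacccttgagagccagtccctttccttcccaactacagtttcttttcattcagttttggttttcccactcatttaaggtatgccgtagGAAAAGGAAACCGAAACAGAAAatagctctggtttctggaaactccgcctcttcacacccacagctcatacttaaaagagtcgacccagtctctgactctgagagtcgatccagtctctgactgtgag
Slfn5: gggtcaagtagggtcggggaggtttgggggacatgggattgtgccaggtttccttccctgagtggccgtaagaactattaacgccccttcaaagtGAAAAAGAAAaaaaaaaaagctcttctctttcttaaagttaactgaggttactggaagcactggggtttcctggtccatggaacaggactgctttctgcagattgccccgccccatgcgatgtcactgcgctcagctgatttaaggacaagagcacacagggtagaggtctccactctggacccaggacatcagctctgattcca
Bst2: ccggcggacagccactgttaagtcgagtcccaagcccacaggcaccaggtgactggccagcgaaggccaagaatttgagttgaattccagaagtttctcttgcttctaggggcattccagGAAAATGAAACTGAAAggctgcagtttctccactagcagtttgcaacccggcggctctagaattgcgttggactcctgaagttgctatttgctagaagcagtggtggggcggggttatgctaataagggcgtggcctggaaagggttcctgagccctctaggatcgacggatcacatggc

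The first Isg15 match began 78 bases before the start, that of Slfn5 155 and that of Bst2 130 bases before it. The 3 genes differed in how their UMIs were spread over cells. Slfn5, a Schlafen family gene, had 65 saline UMIs in 4 cells, 64 of them in the 3 high cells, and 37 UMIs in 11 NP cells, a log2 ratio of -1.97 (-2.59 to -1.36). Bst2 (tetherin, or PDCA-1), a restriction factor used to sort pDCs, was detected in 18 of 18 and 36 of 36 cells. It reached 5161.2 CPM in saline and 4021.6 in NP, a log2 ratio of -0.36 (-0.47 to -0.25), with 35 to 88 UMIs per cell in saline and 12 to 87 in NP. The 3 high saline cells held 22.4% of its UMIs. A match of letters is a description of the window and not evidence of binding.

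The type I response list was higher on balance in 4 of the 5 other cell classes and near 0 in B cells. Its median log2 ratio was 0.33 over 29 measured genes in conventional dendritic cells, 0.01 in B cells (24 genes higher and 22 lower), 0.56 in classical monocytes, 1.31 in neutrophils and 0.28 in endothelial cells, against -0.83 in pDCs. Isg15 itself went from 116.0 to 452.9 CPM in neutrophils and from 70.9 to 174.0 in monocytes, but from 458.3 to 47.0 in pDCs. Free RNA held Isg15 at 80.4 CPM in saline and 203.3 in NP. The difference between classes was not tested, and the negative pDC median rests on the 3 saline cells.

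**Figure D5:**
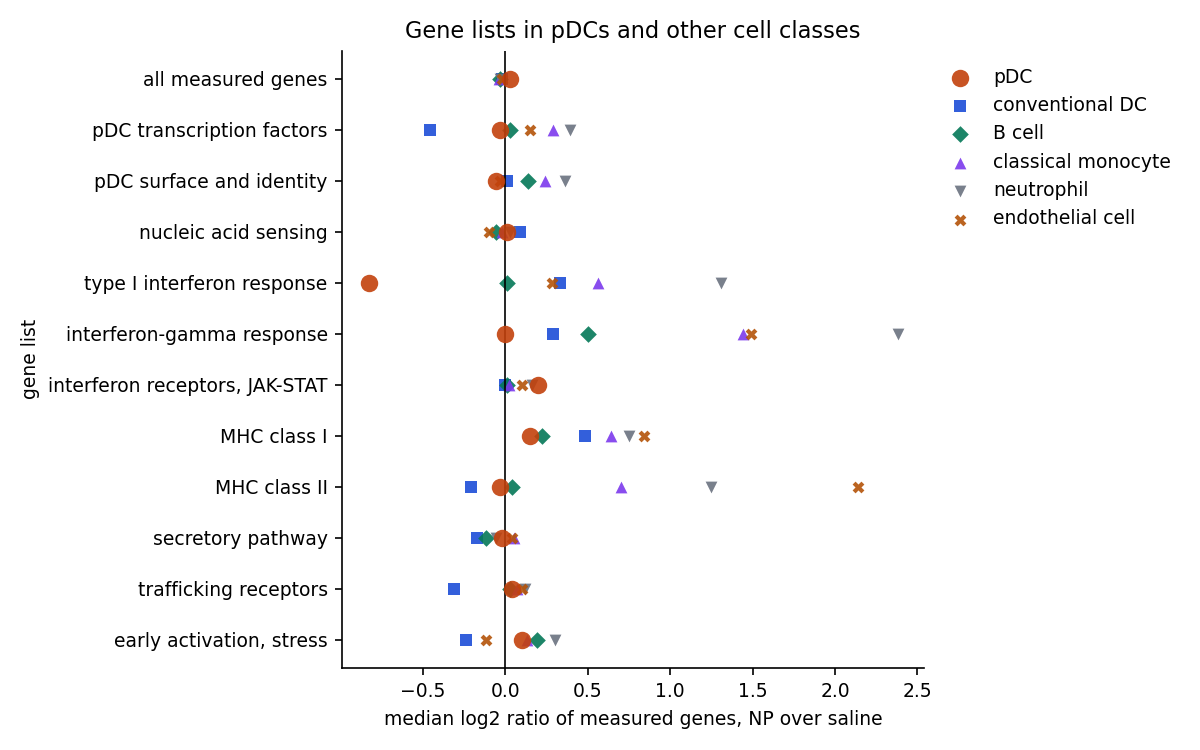
Median log2 ratio of measured genes, NP over saline (horizontal axis), for 11 gene lists and all measured genes (vertical axis) in pDCs and 5 other cell classes. The pDC point for the type I interferon response lies at -0.83, the lowest of the classes, while pDC points for the other lists lie between -0.06 and 0.20.

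No transcript of a type I or III interferon gene was seen. The 20 type I and III interferon genes, among them Ifnb1 and 13 Ifna genes, had 0 UMIs in both pools. A low level could be missed, since 3 UMIs would stand for 14.9 CPM in saline and 6.72 in NP. Of the genes that lead to their induction, 16 of 25 were measured, with 2 at least 2-fold higher, 1 lower and a median log2 ratio of 0.01. Tlr7, the endosomal receptor for single-stranded RNA, had 32 UMIs in 14 saline cells and 38 in 21 NP cells, a log2 ratio of -0.90 (-1.62 to -0.18). Its share at 2000 UMIs per cell was 11.1% in both libraries. Tlr9, the receptor for unmethylated DNA, had 0 and 1 UMIs, too few to compare. Unc93b1, the chaperone that carries these receptors, had 126 and 236 UMIs (-0.25, -0.57 to 0.08), and the solute carrier gene Slc15a4 had 38 and 59 (-0.52, -1.13 to 0.11). Myd88, their adaptor, had 15 and 32 UMIs (-0.06, -0.99 to 0.93), and Irf5 had 24 and 60 (0.17, -0.54 to 0.92). The 2 higher genes were Ap3b1, an adaptor of endosomal sorting, with 8 and 38 UMIs, and the lysosomal protease gene Lgmn, with 1 UMI in 1 saline cell and 36 in 12 NP cells, which was measured only through its NP UMIs and whose ratio rests on the count of 3 put in place of 1. The lower gene was Irf7, at 246.6 CPM in saline and 179.1 in NP once the 3 cells highest for the type I response were left out of each library.

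Interferon receptors and their signalling genes gave a median log2 ratio of 0.20 over 13 measured genes, 2 of them at least 2-fold higher and 0 lower. Ifnar1 had 47 and 138 UMIs (0.40, -0.09 to 0.91) and Ifnar2 had 86 and 230 (0.27, -0.10 to 0.64). Socs3, a feedback inhibitor of cytokine signalling, had 12 and 72 UMIs (1.43, 0.54 to 2.45), and the interferon-gamma receptor gene Ifngr2 had 5 and 27. On the interferon-gamma response list, 13 genes were measured, 1 was at least 2-fold higher (Ifngr2) and 1 lower, with a median of -0.00. The lower gene was Iigp1, a GTPase of defence against intracellular parasites, with 56 UMIs in 2 saline cells and 16 in 6 NP cells. The immunoproteasome genes Psmb8 and Psmb9 had ratios of 0.03 and -0.03. The median for this list was 0.29 in conventional dendritic cells, 0.50 in B cells, 1.44 in monocytes, 1.49 in endothelial cells and 2.38 in neutrophils.

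MHC class I genes gave a median log2 ratio of 0.15 over 19 measured genes, 2 higher (H2-Q6 and H2-Q7) and 0 lower. H2-K1, a classical heavy chain, had 217 and 671 UMIs (0.48, 0.25 to 0.70), and B2m, the light chain, had 317 and 801 (0.18, -0.01 to 0.38). MHC class II genes gave a median of -0.03 over 10 measured genes with 0 past 2-fold. Cd74, the invariant chain, was at 5380.4 CPM in saline and 4429.4 in NP, a log2 ratio of -0.28 (-0.39 to -0.17). The class II list varied widely among cells of both libraries, from 14.4 to 287.5 UMIs per 10000 in saline (median 108.3) and from 12.9 to 271.0 in NP (median 97.9). H2-Aa was detected in 13 of 18 and 30 of 36 cells. The costimulatory gene Cd86 had 1 and 10 UMIs, and Cd40 had 0 and 3. The median for class II was -0.21 in conventional dendritic cells, 0.04 in B cells, 0.70 in monocytes, 1.25 in neutrophils and 2.14 in endothelial cells.

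Genes of the secretory pathway, which pDCs use to export interferon, were close in both pools. Of 29 measured genes, 0 were past 2-fold in either direction, and the median was -0.02. Herpud1, a gene of the unfolded protein response, had 58 and 241 UMIs (0.90, 0.48 to 1.34), while Xbp1, its regulator, had 72 and 156 (-0.04, -0.45 to 0.39). Trafficking receptors gave a median of 0.04 over 12 measured genes, with 0 past 2-fold. Cxcr3, a receptor for interferon-induced chemokines, had 27 and 45 (-0.42, -1.14 to 0.33) and Ccr7, the receptor that leads activated cells to lymph nodes, had 5 and 2. Of the pDC transcription factors 9 were measured, 0 higher and 1 lower, with a median of -0.03. The lower gene, Irf7, was past 2-fold with the 3 high saline cells and not without them (246.6 and 179.1 CPM). Tcf4 had a log2 ratio of 0.32 (0.14 to 0.49). Surface and other identity genes gave a median of -0.06 over 35 measured genes, 0 higher and 2 lower, namely Ly6a and Rpgrip1, a gene best known from photoreceptor cilia, with 13 and 9 UMIs.

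Inhibitory receptors and checkpoint genes gave a median of -0.05 over 10 measured genes, with 2 higher and 1 lower. Tyrobp, which encodes the Siglec-H partner DAP12, had 936 and 1957 UMIs (-0.09, -0.20 to 0.03). Lilrb4a, an inhibitory receptor of myeloid cells, had 5 and 36 UMIs (1.70, 0.34 to 3.40), Cd300a had 15 and 69 (1.05, 0.23 to 1.96), and Cd300lf had 26 and 26 (-1.15, -1.99 to -0.31). Cd274 (PD-L1) had 4 and 11 UMIs. Survival and proliferation genes gave a median of 0.10 over 9 measured genes, 1 higher and 0 lower. Flt3, the growth factor receptor of dendritic cells, had 24 and 90 UMIs (0.75, 0.09 to 1.47), Bcl2l11, the death-promoting protein BIM, had 4 and 30 (1.75, 0.25 to 3.72), and the cycling gene Top2a had 0 and 2. Scavenger and uptake genes, listed because the nanoparticles are taken up by phagocytes, gave a median of 0.14 over 5 measured genes with 0 past 2-fold. Cd68 had 34 and 101 UMIs (0.42, -0.16 to 1.02), and Axl had 2 and 0.

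Early activation genes, which can also move during tissue digestion, gave a median of 0.10 over 32 measured genes, 5 higher and 3 lower. Nfkbia, the inhibitor of NF-kappa B, had 24 and 134 UMIs in 11 and 29 cells (1.33, 0.69 to 2.02), Nr4a1 had 23 and 110 (1.10, 0.45 to 1.82), and Cebpb had 31 and 145 (1.07, 0.51 to 1.68). The other 2 higher genes were Klf4 and Ier3. The lower genes were Cd69, a lymphocyte activation receptor, and the heat shock genes Hspa1a and Dnajb1. Cd69 had 157 and 99 UMIs (-1.82, -2.20 to -1.45), of which 1 saline cell held 74. Without the top cell of each library its ratio was -1.22.

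A group of 6 NP cells stood apart by low Siglech, with 3 to 11 UMIs each against 19 to 65 in the other 30 NP cells and 16 to 45 in saline. They were singled out after their values were seen, and their low Siglech sets them near the limit of the rule. Their total UMIs ranged from 3396 to 22191. Tcf4 was at 2492.9 CPM in these cells and Runx2 at 1017.5, close to or above the values of the NP pool. Their levels were 127.2 CPM for Ccr9, 63.6 for Klk1, 38.2 for Spib and 801.3 for Cd74, lower than in the other NP cells by a log2 ratio of -3.26, -4.76, -3.62 and -2.70. Pooled, Irf8 was also lower, at 1920.5 CPM against 3614.2 in the other 30 NP cells, as were Bst2 (2836.3 and 4275.0) and Pacsin1 (114.5 and 359.0). The 6 cells were not alike. Irf8 had 9 UMIs each in cells of 22191 and 16222 total UMIs, but 46 and 48 in cells of 12703 and 12570. The cells with 9 held 59 and 74 of the 196 Tcf4 UMIs of the 6. Bcl11a was close, at 648.7 and 611.9. These 6 cells held 69 of the 97 Klf4 UMIs, 140 of the 263 Lgals3 UMIs and 57 of the 108 Ms4a6c UMIs of the NP pool. One of the 6 was the NP cell with 538 UMIs of the neutrophil list and 2.11% of its UMIs on S100a8 and S100a9, and it held 49 of these Lgals3 and 20 of these Klf4 UMIs. The other 5 held 3 to 12 UMIs of the neutrophil list each. Other genes high in the 6 cells were Spi1, the myeloid factor PU.1, at 508.8 CPM, the interferon-induced transmembrane gene Ifitm2 at 788.6, and the intermediate filament gene Vim at 2035.0. Markers of transitional dendritic cells, which share traits of pDCs and conventional dendritic cells, were mixed. Over all pDCs 10 of 18 were measured, 3 higher and 1 lower, with a median of 0.06. Zbtb46 had 4 UMIs in 3 of the 6 cells and 0 in the other 30, Cx3cr1 had 6 UMIs in 2 of the 6 and 7 UMIs in 2 of the other 30, Cd209a was at 178.1 CPM in the 6 and 201.2 in the other 30, and Axl, Cd2 and Batf3 were at 0 in both. These cells were given no other name. With at least 15 Siglech UMIs required, the log2 ratio of Klf4 was 1.61, of Lgals3 1.02, of Ms4a6c 1.21, of Cox6a2 -0.34 and of Klk1 -0.04, against 3.13, 1.84, 2.02, -0.60 and -0.31 over all pDCs.

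Markers of other cell types moved with the libraries in part. Neutrophil genes gave a median log2 ratio of -1.05 over 7 measured genes, 5 at least 2-fold lower and 0 higher, with 1055 UMIs in saline and 988 in NP, 5255.9 and 2213.6 CPM. S100a9, the most abundant, had 639 and 418 UMIs, and single cells held most of the list. One saline cell held 757 of the 1055 UMIs, with 3.78% of its own UMIs on S100a8 and S100a9, where the library median was 0.112%. In NP 1 cell held 538 of the 988 UMIs, and it and another had 2.11% and 1.21% on these genes, where the median was 0.0538%. Without the top cell of each library the median ratio of the list was -0.33 and that of S100a9 -0.71. Free RNA held S100a9 at 98090.1 CPM in saline and 53950.2 in NP. Monocyte and macrophage genes gave a median of 0.76 over 8 measured genes, 4 higher and 1 lower, with sums of 3965.6 and 3864.8 CPM. Lyz2 had 7 UMIs in saline and 202 in NP, of which 1 NP cell held 168. Conventional dendritic cell genes gave a median of 0.56 over 6 measured genes, 2 higher and 0 lower. Cd24a had 8 and 52 UMIs (1.55, 0.46 to 2.83) and Itgax (CD11c) had 7 and 40 (1.36, 0.19 to 2.77), while Xcr1 was at 0. B cell genes gave a median of -0.40 over 4 measured genes, with Igkc at 147 and 110 UMIs (-1.57, -1.94 to -1.20). Of the T cell and natural killer lists only Il7r, Cd28 and Klrd1 were measured, of the plasma cell list only Mzb1, of 12 endothelial genes 2, of 15 epithelial and stromal genes 1, and of the erythroid, platelet, basophil and mast cell lists 0. The T cell gene Cd3d and the B cell gene Cd79a (limited by the rule) had 1 UMI in each library. The part of these transcripts in the other ratios was not tested.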

How the data were processed

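Lung suspensions were profiled by 10x single-cell RNA sequencing, 1 saline and 1 NP library. The authors deposited unfiltered matrices of counts (UMIs per gene and barcode) with 32285 genes, 1778347 and 1757924 barcodes with a UMI, and 91168129 and 90081747 UMIs. The submitters' processing notes name Cell Ranger 6.0 and build mm10, while the matrix headers name version 4; whether reads were counted by strand is not given in the sources used here. Coordinates came from GENCODE on GRCm38, where 99.6% of gene IDs were found.

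Cells were filtered and selected as given in the report. Doublets were scored with Scrublet (scanpy 1.11.5, limit 0.25) and not removed. UMIs were summed over the pDCs of a library and divided by their total (numpy 2.4.6, scipy 1.17.1, pandas 2.3.3, matplotlib 3.10.9, Python 3.11.15). Intervals were exact Poisson for levels, exact conditional binomial for ratios of levels and Clopper-Pearson for shares. For folds of shares they were a normal approximation on the log scale (Katz). No test was used, since cells are not replicates, and the study's test over cells was not repeated. For shares of cells with a UMI, cells were thinned to 2000 UMIs. Other cell classes were set by marker UMIs. The pDC rule, the 28 gene lists and the comparisons were chosen with earlier results of these data known. Named genes were those of the rule, list members, the 20 leading identity genes and the 12 highest and 12 lowest ratios; Ifitm2, Spi1 and Vim were named after their values were seen. The summing of pools was tested on simulated counts. Alternatives covered the limits on genes, mitochondrial and S100a8 and S100a9 UMIs, Siglech and the second marker (not those on Cd79a and Cd3e), scaling, the least UMIs per gene and single cells left out. Some genes are not reported here.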

Additional observations from a re-analysis of the deposited data

Results flagged for a closer look

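The type I interferon response list went the opposite way in pDCs and in 4 other cell classes. Its median log2 ratio, NP over saline, was -0.83 in pDCs, against 0.33 in conventional dendritic cells, 0.56 in classical monocytes, 1.31 in neutrophils and 0.28 in endothelial cells. With 1 library per group the difference was not tested. Without the 3 pDCs highest for the list in each library, the pDC median was 0.08.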

How the results depend on the processing

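Over 89 list and gene results, 1889 of 1991 values from alternatives stayed within the interval of the reported value. The sum and median of the type I interferon response list are not among the 89 and are given below. The interval was the counting interval, for list medians the mean interval of the middle gene or genes, and 2-fold where there was none. Of the rest, 97 moved further and 5 of genes past 2-fold changed sign. Of these 5, Ccl3 changed sign only through the count of 3 put in place of 0 saline UMIs. The log2 ratio of the pDC share of all cells lay between 0.70 and 1.27, and that among cells with low S100a8 and S100a9 between -0.09 and 0.42. Of the genes, 309 were at least 2-fold higher and 161 lower, and these counts became 190 and 84 with a mitochondrial limit of 5%, 57 and 40 with at least 50 UMIs per gene, 204 higher with 1 UMI added to each count, 646 lower with at least 1 UMI, and 170 higher without cells that held UMIs of another cell type. The summed type I interferon response, -1.05, was -1.17 with an S100a8 and S100a9 limit of 1% and also without the deepest cell, -0.73 without the top cell of each library, 0.09 without the 3 top cells and 0.67 with the mitochondrial limit of 5%. Its median, -0.83, was 0.08 without the 3 top cells and 0.97 with that limit. The 3 saline cells highest for the list all exceeded 5% mitochondrial UMIs. With the same limit the ratio was 0.52 for Ifi209, 1.38 for Ifi44, 0.97 for Ifi44l and 1.45 for Ifi203. For Ccl3 it was -0.13, but the saline pDCs left each had 0 Ccl3 UMIs, while 1 NP cell left held 6. That value rests on the count of 3 put in place of 0.

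Leaving out top cells, the Siglech minimum of 15 UMIs and the removal of cells with UMIs of another type, not counting Il7r, Klrd1, Cdh5 and Themis, were chosen after seeing the data. A planned filter that counted those 4 genes left 0 saline and 5 NP pDCs and gave no value. No paired analysis was possible because each condition has 1 library. With 18 and 36 cells, a ratio with under 3 UMIs in a pool rests on the count of 3 put in its place, and mouse-to-mouse spread is unknown.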
